A study of Mus musculus with 22 samples.

Results

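The data described here compare 2 RNA fractions of uninjured mouse spinal cord: RNA pulled down with hemagglutinin (HA)-tagged ribosomes, called HA IP, and the RNA left unbound in the same homogenate, called flow-through. They are the 8 libraries, of 22 in all, whose labels read Wild type, Uninjured and either HA IP or flow-through, and they come as 1 HA IP and 1 flow-through library from each of 4 animals, numbered 42, 79, 65 and 154 in the titles. The animals were young adult females of the line mGFAP-Cre-RiboTag, so that both fractions carry the Cre transgene and the tag allele, and no animal without Cre was analysed here. Cre is driven by a mouse Gfap promoter, which means that any cell with Cre activity at any time carries tagged ribosomes, whatever it is at the time of harvest. The rest of the series holds 4 injured mice of the same line and 3 injured mice with loxP-flanked STAT3, all taken on day 14 after crush of the cord at thoracic level 10; the 8 libraries of the first of these groups, from the central 3 mm of the lesion, are used at the end as a contrast. The comparison asks which RNAs the tagged ribosomes of astrocytes carry more, or less, than the remainder of the tissue does.

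Astrocytes are the glial cells that clear glutamate and potassium from around synapses, couple to each other through gap junctions, cover blood vessels with end-feet rich in water channels, and supply lipids and metabolites to neurons. In the RiboTag allele, Cre exchanges the last exon of the ribosomal protein gene Rpl22 for a copy that ends in the HA tag, so that antibodies to HA bring down ribosomes of Cre-positive cells with the mRNA they are translating. A gene used by astrocytes and by few other cells is then high in HA IP and low in flow-through, and a gene of other cells is the reverse. In bulk fractions such as these, fewer cells of a type and less RNA per cell cannot be told apart.

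HA IP libraries held 37267334 to 59337089 counts and flow-through libraries 4904425 to 11242654, so that depth moved with the fraction in every animal. Reads of the ribosomal RNA precursor Rn45s made up 12.6% to 26.7% of HA IP and 9.49% to 39.7% of flow-through counts, with the lower shares in animals 42 and 154 in both fractions. Outside Rn45s and 2 other genes that collect ribosomal reads, Lars2 and Mir6236, 26934866 to 51571785 counts remained in HA IP and 2858044 to 10140612 in flow-through. At these depths 3 counts stand for 0.0506 to 0.0805 CPM (counts scaled to a common library size) in HA IP and 0.267 to 0.612 CPM in flow-through, which is the level under which a gene cannot be said to be present. Differences between fractions are given as log2 differences (HA IP minus flow-through) ± standard error (SE) from edgeR's quasi-likelihood test with the animal as a block, with Benjamini-Hochberg adjusted p-values, and a gene is said to be higher or lower where the adjusted p was under 0.05.

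Of 14312 genes tested, 4701 (32.8%) were higher and 4381 (30.6%) were lower in HA IP. These shares are the background for the list counts below. A test against a 2-fold difference was passed by 1914 higher (13.4%) and 1660 lower (11.6%) genes. Of the 9082 genes called, 8831 had the same direction in 4 of 4 animals. The median over all genes was 0.06, and the upper and lower tails of the distribution differed in length. A log2 difference above 3 was fitted for 565 genes and one above 5 for 42 genes, while 0 genes lay below −3. The lowest fitted value was −2.54. In list members that did not pass the low-count filter, no flow-through count exceeded the HA IP count of the same animal. Some were equal in every animal, such as Terc (5, 1, 0 and 1 in animals 42, 79, 65 and 154). For equal counts the library sizes set the difference, and a lower value needs more counts in flow-through. Among tested genes, Tlx3 (38 counts in HA IP and 35 in flow-through) and Snora23 (42 and 30) had lower CPM in HA IP. A gene called lower in HA IP thus has a lower CPM there, and can have as many counts or more. Whether HA IP counts include flow-through reads was not tested. The 1st percentile was −2.25, a 4.76-fold excess in flow-through, and the 99th percentile was 4.27, a 19.3-fold excess in HA IP.

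**Figure D1:**
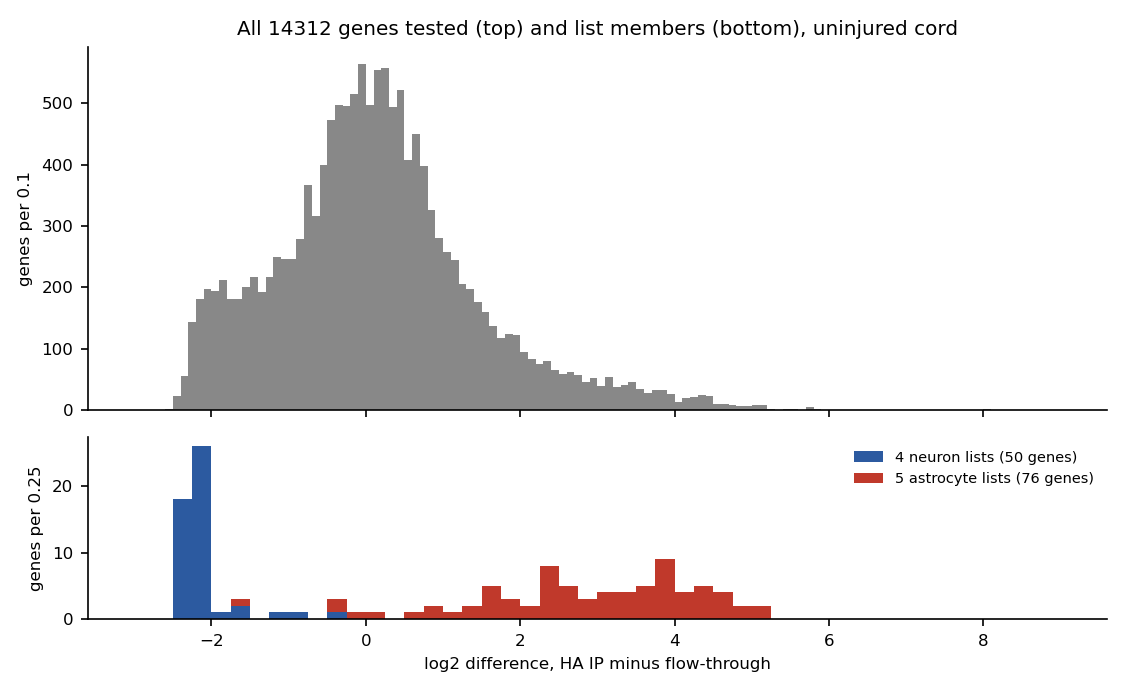
The upper panel counts genes per 0.1 of the log2 difference between HA IP and flow-through, and the lower panel, with bars stacked, counts tested members of 4 neuron lists (50 genes, blue) and 5 astrocyte lists (76 genes, red) per 0.25. The neuron genes gather between −2.5 and −2 near the lower end, and the astrocyte genes spread from −1.63 to 5.19.

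The label was checked first against 5 defining astrocyte genes, all of which were higher in HA IP. Gfap, the intermediate filament protein of astrocytes whose promoter drives the Cre (chromosome 11, 102887336 to 102900912, minus strand, GRCm38), stood at 3221, 4348, 4676 and 3106 CPM in HA IP of animals 42, 79, 65 and 154 and at 96.3, 127, 128 and 90.1 CPM in their flow-through. Every HA IP value was above every flow-through value, and the difference was 5.12 ± 0.09, a 34.7-fold excess (adjusted p = 8.215e-09, edgeR, n = 4 pairs). Gja1, the gap junction protein connexin 43, had 1081, 764, 824 and 826 CPM in HA IP and 34.3, 30.4, 28.1 and 21.9 CPM in flow-through, in the same order of animals, a difference of 4.94 ± 0.12. Slc1a2, the main glutamate transporter of astrocytes (chromosome 2, 102658659 to 102790784, plus strand), varied most between animals, with 11265, 2356, 2704 and 5227 CPM in HA IP and 355, 123, 116 and 199 CPM in flow-through. Both of its fractions were high in animals 42 and 154, so that the ratio varied less than the levels did, and the paired difference was 4.63 ± 0.14. Aldh1l1, a folate enzyme widely used as an astrocyte marker (chromosome 6, 90486427 to 90600203, plus strand), had 139, 169, 208 and 167 CPM in HA IP against 10.5, 6.26, 4.28 and 7.83 CPM in flow-through (4.45 ± 0.23). Aqp4, the water channel of end-feet, had 2709, 1787, 2212 and 1959 CPM against 144, 108, 90.7 and 91.9 CPM (4.32 ± 0.12). For none of the 5 did the fractions overlap.

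**Figure D2:**
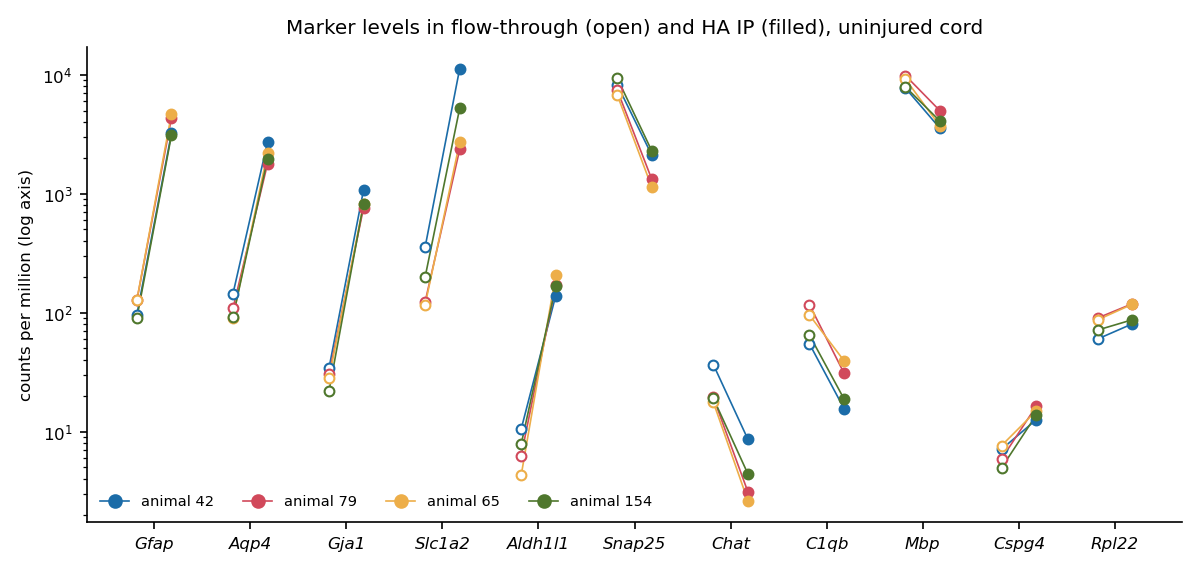
Levels in CPM on a log axis are drawn for 5 astrocyte genes, 5 genes of other cells (Snap25 and Chat of neurons, C1qb of microglia, Mbp of myelin, Cspg4 of oligodendrocyte precursors) and Rpl22, with flow-through as open and HA IP as filled points and a line for each of the 4 animals. The astrocyte lines rise by over 1 order of the axis, those of Snap25, Chat, C1qb and Mbp fall, and those of Cspg4 and Rpl22 rise less.

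The promoter stretches of 4 of these markers are shown because the tag itself depends on the Gfap promoter and the markers were higher together. Each runs 250 bases upstream to 50 bases downstream of an annotated start site, is taken from RefSeq on GRCm38.p6 and is written 5′ to 3′ along the gene's strand. The stretches of Gfap, Slc1a2 and Aldh1l1 lie inside the gene coordinates given above, downstream of the outermost start. Which start site was in use was not tested. Capitals mark matches to TTGGC or GCCAA, the half-site of NFI factors on either strand, and to TTCNNNGAA, the palindrome of STAT factors; the motifs did not overlap in these stretches.
Gfap (chr11:102897151-102897450, minus strand): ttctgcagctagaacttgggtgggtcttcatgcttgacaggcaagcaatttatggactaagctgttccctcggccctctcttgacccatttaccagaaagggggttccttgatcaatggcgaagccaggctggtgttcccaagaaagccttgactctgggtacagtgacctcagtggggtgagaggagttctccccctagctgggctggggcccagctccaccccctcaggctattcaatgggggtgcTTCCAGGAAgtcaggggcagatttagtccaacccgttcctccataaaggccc
Gja1 (chr10:56377050-56377349, plus strand): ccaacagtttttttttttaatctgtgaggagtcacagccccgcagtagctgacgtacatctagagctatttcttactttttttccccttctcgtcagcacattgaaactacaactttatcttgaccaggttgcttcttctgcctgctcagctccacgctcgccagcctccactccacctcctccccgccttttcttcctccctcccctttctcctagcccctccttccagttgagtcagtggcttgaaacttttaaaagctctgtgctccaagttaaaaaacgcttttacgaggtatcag
Slc1a2 (chr2:102706188-102706487, plus strand): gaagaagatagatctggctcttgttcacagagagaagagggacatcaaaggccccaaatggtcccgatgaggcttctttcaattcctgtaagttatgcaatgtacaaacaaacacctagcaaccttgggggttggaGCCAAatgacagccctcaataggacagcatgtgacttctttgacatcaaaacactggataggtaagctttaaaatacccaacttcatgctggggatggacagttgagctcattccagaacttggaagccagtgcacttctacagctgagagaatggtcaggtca
Aldh1l1 (chr6:90550543-90550842, plus strand): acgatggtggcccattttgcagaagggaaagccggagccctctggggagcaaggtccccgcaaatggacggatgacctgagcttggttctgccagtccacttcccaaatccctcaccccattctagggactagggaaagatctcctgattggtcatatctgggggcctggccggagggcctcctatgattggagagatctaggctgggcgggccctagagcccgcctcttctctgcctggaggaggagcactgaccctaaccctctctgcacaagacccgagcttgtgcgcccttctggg
The Gfap stretch holds 1 STAT match, across the annotated start site, and 0 NFI matches. The Slc1a2 stretch holds 1 NFI match and 0 STAT matches, and those of Gja1 and Aldh1l1 hold neither. Over 27025 genes with such a stretch in the table, taking the first listed for each gene, 47.0% hold an NFI half-site and 8.47% a STAT match. Among the 10 named genes that exceeded flow-through most, 6 had an entry, of which 3 held an NFI half-site and 2 a STAT match. For astrocyte transcription regulators the numbers were 10 and 1 of 19 with an entry, and for surface receptors 11 and 1 of 21. The NFI shares of these lists, 52.6% and 52.4%, lie near that of all promoters.

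Glutamate and amino acid uptake was represented by 12 genes, all tested, and 12 were higher in HA IP, with a median of 3.47 beside 0.06 over all genes. The second glutamate transporter Slc1a3 stood at 335, 278, 325 and 398 CPM in HA IP and 21.1, 17.9, 18.1 and 15.6 CPM in flow-through. The fractions lay far apart in every animal (4.21 ± 0.14). Slc25a18, a mitochondrial glutamate carrier, was 19.3-fold higher (4.27 ± 0.13). The GABA transporter Slc6a11 (GAT-3) was at 3.93. Glul, the enzyme that turns glutamate into glutamine and is also made by oligodendrocytes, was at 1.85, and the serine and alanine transporter Slc1a4, at 1.53, was the lowest of the 12.

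Water, potassium, ion and gap junction genes were higher for 15 of 15 members, with a median of 3.77. Mlc1, an end-foot membrane protein, had 684, 802, 789.9 and 720.5 CPM in HA IP and 27.7, 25.96, 23.1 and 28 CPM in flow-through. Its spread between animals was small in both fractions (4.82 ± 0.11, 28.3-fold). The sodium bicarbonate cotransporter Slc4a4 was at 4.53 ± 0.15, and the potassium channels Kcnj16 and Kcnj10 at 4.45 and 3.47. The sodium pump subunit Atp1b2 had the highest HA IP level of this list, 6579.8 ± 259 CPM (SD, n = 4) against 713 ± 38.8 CPM in flow-through. The connexins were ordered Gja1 (4.94), Gjb6 (3.90) and Gjb2 (1.59), and the dystrophin-complex genes Dag1 (1.89) and Dtna (1.35) lay below Aqp4 and Kcnj10, the channels of the end-foot.

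Filament and S100 genes were higher for 7 of 8, beside 32.8% of all genes. Vim (vimentin) had 71.2, 75.4, 104 and 72.6 CPM in HA IP and 2.36, 11.8, 17.1 and 9.48 CPM in flow-through, and animal 42 was lowest in flow-through although its library was the deepest of that fraction (3.21 ± 0.32). S100a6 was likewise lowest in animal 42, with 4.17 CPM in flow-through of animal 42 against 13.9 to 18.8 CPM in the other 3 (2.72 ± 0.21). S100b, often taken as an astrocyte marker, was at 1.38, the smallest difference of the 7. Synm (synemin), which pairs with other filament proteins, was lower in HA IP (−0.46 ± 0.12, adjusted p = 0.00773, or 0.0709 with 22 libraries in 1 edgeR fit).

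Of 23 transcription regulators known from astrocytes, 22 passed the low-count filter; 21 of these were higher in HA IP, with a median of 2.96, and Glis3 (0.74, adjusted p = 0.184, edgeR) did not pass the test. Yap1, the effector of Hippo signalling, had 44.8, 42.9, 49.3 and 43.5 CPM in HA IP and 0.973, 1.47, 0.476 and 1.74 CPM in flow-through. The flow-through level was a small share of the HA IP level in each animal (5.19 ± 0.25, 36.5-fold), and its partner Tead1 was at 3.06. Rfx4, a regulator of ciliogenesis in neural progenitors, was at 4.57 ± 0.12, Sox9, which specifies glia, at 4.23, and the inhibitor of DNA binding Id2 at 4.07 ± 0.14. Regulators of ventral and dorsal cord patterning were among them: Nkx6-1 (1452 counts in HA IP against 14 in flow-through) at 4.24 ± 0.50, Gli2 at 3.71 and Pax6 at 3.36. The nuclear factor I genes stood lower, with Nfib at 2.08, Nfix at 2.06 and Nfia at 1.47.

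Surface receptors were split, with 20 of 25 higher and 3 lower (median 2.41), beside 32.8% and 30.6% of all genes. Fgfr3 had 499, 498, 556 and 426 CPM in HA IP and 16.9, 25.04, 21.4 and 23.2 CPM in flow-through. The 2 ranges are far apart (4.52 ± 0.14, 22.9-fold). Its paralogs were not of this kind: Fgfr1 was slightly lower in HA IP (−0.34 ± 0.09, adjusted p = 0.00918, edgeR), a call lost without animal 79 and with 22 libraries in 1 fit (adjusted p = 0.2185), and Fgfr2 did not pass (−0.10, adjusted p = 0.344). Egfr (3.99 ± 0.37), the endothelin receptor Ednrb (3.89 ± 0.14) and the prosaposin receptor Gpr37l1 (3.83 ± 0.10) were higher, the last with the highest HA IP level of the list (1230.2 ± 146 CPM, SD, n = 4). The Notch receptors Notch1, Notch2 and Notch3 lay close together at 2.61, 2.40 and 2.52. The 2 metabotropic glutamate receptors of the list were lower. Grm5 had 39.6, 23.1, 24.8 and 24.3 CPM in HA IP and 122, 72.9, 84.0 and 69.0 CPM in flow-through, and was lower in HA IP in all 4 animals (−1.63 ± 0.10). Grm3 was at −0.31 ± 0.12 (adjusted p = 0.0417), a call lost without the block (adjusted p = 0.105), without the low-count filter (0.138) and with 22 libraries in 1 fit (0.206), and without animal 79 (0.163) or 65 (0.154).

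Wnt ligands and secreted antagonists went both ways, with 5 higher and 5 lower of 11 tested, of 13, and a median of 0.21. Over all genes 32.8% were higher and 30.6% lower. Wnt7a had 46.3, 55.0, 56.5 and 23.5 CPM in HA IP and 1.11, 1.66, 0.952 and 0.348 CPM in flow-through. Animal 154 was lowest in both fractions, and the ratio was alike (5.49 ± 0.21, 45.1-fold, from 8147 against 33 counts). Wnt7b, its close relative, was at 4.12 ± 0.31 and the antagonist Sfrp5 at 4.22 ± 0.43. The related antagonists Sfrp2 (−2.19 ± 0.26), Sfrp1 (−1.95 ± 0.15) and Frzb (−1.21), and Dkk3 (−1.23 ± 0.10), were lower in HA IP. Secreted antagonists of 1 family thus differed in sign. The value of Sfrp2 lies near that of a gene with equal counts in both fractions. Wnt11, which did not pass the filter, had 15, 3, 2 and 18 counts in HA IP and 0 in each flow-through library, which is under the floor of 3 counts per library.

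Secreted synaptic and matrix proteins and phagocytic receptors were higher for 15 of 18, with a median of 2.37. Sparc, a matrix-binding glycoprotein, had 8101, 9118, 8996 and 10898 CPM in HA IP and 316, 462, 470.3 and 607 CPM in flow-through (4.35 ± 0.12). It had the highest HA IP level of the list. Timp3, an inhibitor of metalloproteases, was at 4.11 ± 0.11 and the glypican Gpc5 at 3.41 ± 0.15. The thrombospondins, which promote synapse formation, were unequal: Thbs2 was at 3.30 and Thbs3 at 2.27, while Thbs1 (−0.29, adjusted p = 0.663) and Thbs4 (−0.76, adjusted p = 0.372, edgeR) did not pass. The phagocytic receptors Mertk and Megf10 were at 2.13 and 1.49.

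Enzymes of glycine, folate, glycogen and pyruvate metabolism were higher for 18 of 19, with a median of 2.56. Pygm, the muscle-type glycogen phosphorylase, had 326, 453, 505 and 364 CPM in HA IP and 19.5, 15.8, 19.3 and 23.5 CPM in flow-through, with no overlap (4.35 ± 0.16). Its brain-type counterpart Pygb was at 2.08. Gldc, the glycine-cleaving decarboxylase, was at 4.09, and Aldoc, the aldolase of astrocytes, at 3.65 ± 0.11 with the highest HA IP level of the list (8789 ± 1451 CPM, SD, n = 4). Fatty acid oxidation and ketone genes were higher for 23 of 23, with a median of 2.44. The regulator of the pathway, Ppara, had 21.3, 11.9, 15.1 and 20.3 CPM in HA IP and 1.18, 1.66, 1.19 and 0.957 CPM in flow-through. It was the largest difference of the 23 (3.86 ± 0.29). The mitochondrial thiolase Acaa2 (3.74 ± 0.44) and the isomerase Eci1 (3.30 ± 0.23) came with lower flow-through levels in animal 42 (0.695 and 3.96 CPM) than in the other 3 (8.61 to 15.5 and 8.09 to 15.3 CPM). The carnitine transferase Cpt1a was at 2.50.

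Lipid transport and cholesterol synthesis differed in size. Apoe, the lipoprotein that astrocytes secrete, had 2974, 3892, 3764 and 3314 CPM in HA IP and 59.3, 145, 129 and 122 CPM in flow-through. The excess was 32.1-fold (5.00 ± 0.17). Of 14 lipid transport genes, 11 were higher and 2 lower (median 2.32). The lipoprotein lipase Lpl (2045 against 17 counts) was at 4.44 ± 0.34 and the fatty acid binding protein Fabp7 at 4.36 ± 0.20. The 2 transporters that load lipid onto lipoprotein went opposite ways, with Abca1 at 2.13 and Abcg1 at −1.05 ± 0.13. Vldlr was slightly lower (−0.42 ± 0.12, adjusted p = 0.0133, or 0.295 without the block, 0.118 with 22 libraries in 1 edgeR fit and 0.0752 without animal 154). Cholesterol synthesis genes were higher for 17 of 19, but with a median of 1.11. Cyp51 had 379, 279.9, 364 and 308 CPM in HA IP and 83.6, 86.2, 88.8 and 84.8 CPM in flow-through (1.95 ± 0.10). Mvd reached 2.46 ± 0.14, and Hmgcs1, the entry enzyme, 1.61 ± 0.09.

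**Figure D3:**
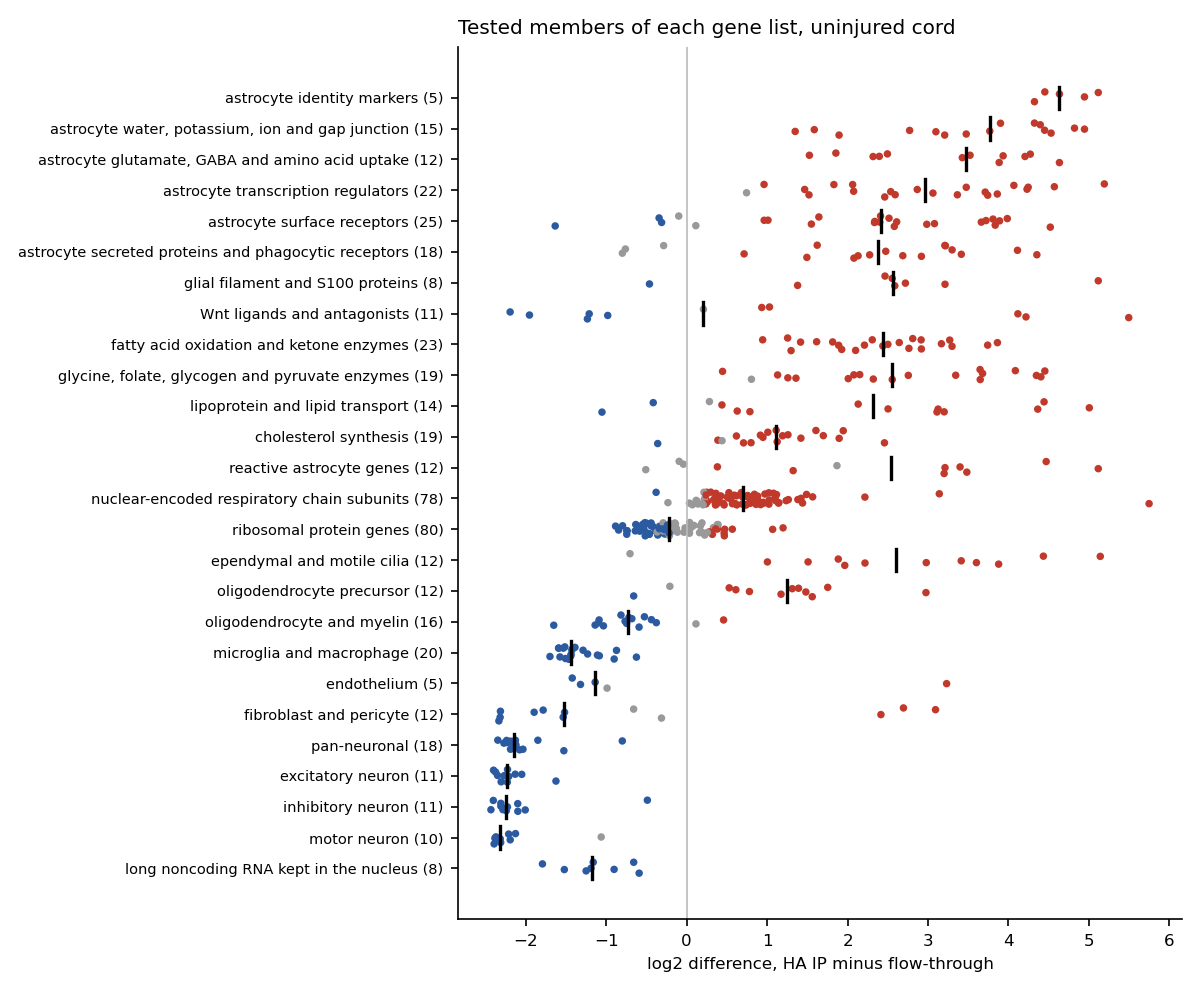
Each point is a tested member of 1 of 26 gene lists, placed by its log2 difference (HA IP minus flow-through); the number tested follows each list name, red and blue points are higher and lower in HA IP at adjusted p under 0.05, grey points did not pass and the black bar is the list median. Points of astrocyte lists spread widely to the right, whereas points of the 4 neuron lists crowd around −2.2.

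Of 14 genes known from reactive astrocytes, 12 passed the filter and 8 were higher, beside 32.8% of all genes, in cord that had not been injured. Apart from Gfap and Vim, these were Cxcl10, Osmr, Aspg, Cd44, Cp and Stat3. Osmr, a cytokine receptor subunit, had 5.08, 5.98, 9.09 and 5.82 CPM in HA IP and 0.0695, 0.552, 1.19 and 0.870 CPM in flow-through (3.48 ± 0.47). Cxcl10, a chemokine, was at 8.58 CPM in HA IP of animal 79 and at 0.902 to 1.30 CPM in the others, and had 4 counts in flow-through, all in animal 79. Its difference (4.47 ± 0.70) thus rests on low counts. Stat3 itself was close to equal in both fractions: 64.5, 71.8, 78.7 and 69.6 CPM in HA IP and 50.9, 48.2, 60.2 and 59.0 CPM in flow-through. No HA IP value fell below a flow-through value, and the excess was 1.30-fold (0.38 ± 0.10, adjusted p = 0.00744, edgeR), a call lost without animal 79 and with 22 libraries in 1 fit (adjusted p = 0.3825). Timp1, named after its values were seen, was at −1.26 in animal 42 and at 4.49 to 5.17 in the other 3, whose flow-through libraries held 0 CPM, and did not pass (1.87 ± 1.15, adjusted p = 0.180). Serpina3n (−0.09), a secreted protease inhibitor, and Hspb1 (−0.04), a small heat shock protein, did not pass either.

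The CPM of neuron genes was lower in HA IP by a nearly constant factor. For a gene with equal counts in both fractions, the library sizes alone give a value near this factor. Tlx3, of the excitatory list, had 38 counts in HA IP and 35 in flow-through over the 4 animals. How far the pull-down removed neuronal RNA was therefore not measured by this factor. Over 50 tested genes of the pan-neuronal, excitatory, inhibitory and motor neuron lists, 49 were lower, 45 lay below −1.8, the median was −2.22 and the quartiles were −2.31 and −2.12. Snap25, a synaptic vesicle fusion protein, had 2104, 1317, 1129 and 2284 CPM in HA IP and 8250.0, 7430.1, 6769 and 9369 CPM in flow-through. Its CPM was lower in HA IP in all 4 animals (−2.27 ± 0.12). Whether its HA IP level includes flow-through reads was not tested. Sst, the peptide somatostatin of inhibitory neurons, was at −2.43 ± 0.13 and Chat, the acetylcholine-making enzyme of motor neurons, at −2.37 ± 0.19. The glutamate loader Slc17a6 (−2.23 ± 0.13), the neurofilament Nefl (−2.24 ± 0.13) and the peptide precursor Penk (−2.31 ± 0.14) lay at the same value within their errors, although their levels in flow-through ran from 224 ± 17.4 CPM (Penk) to 2172 ± 406 CPM (Nefl). Exceptions, named after their values were seen, were Gap43 (−1.53), Slc17a8 (−1.62), Syn2 (−0.80), Npy (−0.49) and Isl1 (−1.06), of which Isl1 did not pass (adjusted p = 0.242).

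The medians of these genes lay further apart between animals than the quartiles did within most animals. The median log2 ratio of the 50 genes was −1.88 in animal 42, −2.39 in animal 79, −2.57 in animal 65 and −1.99 in animal 154. In CPM these are 27.3%, 19.1%, 16.9% and 25.1% of the flow-through level. They are not the share of neuronal RNA that the pull-down kept. Within an animal the quartiles were −1.98 and −1.79, −2.48 and −2.28, −2.72 and −2.40, and −2.04 and −1.85. The 1st percentile over all 14312 genes was −1.99, −2.52, −2.66 and −2.02 in the same order, beside the lower quartile of the neuron genes in each animal. Animals 42 and 154, with the higher neuron ratios, were also those with deeper libraries and smaller Rn45s shares. Scaled library sizes of flow-through and HA IP were 14389800 and 63733800 in animal 42 and 5431800 and 37989300 in animal 79. In animal 65 they were 4201890 and 32141000, and in animal 154 11499800 and 54818900. These sizes alone set the ratio of a gene with equal counts in both fractions, and they order the animals as the neuron medians do. Their part in the difference between animals was not tested. The astrocyte identity markers did not order the animals in this way, at 4.98, 4.65, 4.87 and 4.72.

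**Figure D4:**
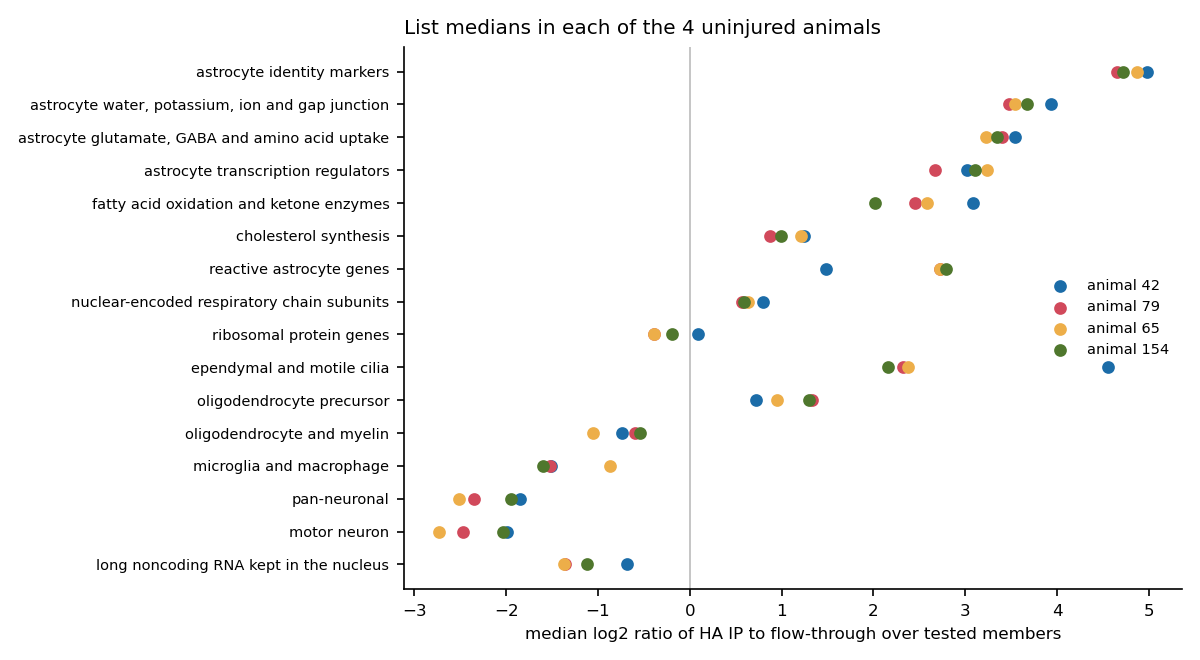
Points give the median log2 ratio of HA IP to flow-through over the tested members of 16 lists in each of 4 uninjured animals. Animal 42 stands apart for ependymal (4.55) and reactive genes (1.48) and animal 65 for microglia (−0.87).

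Microglia and macrophage genes were lower for 20 of 20, less so than neuron genes (median −1.43). These are differences in CPM, and how far the pull-down removed microglial RNA was not measured by them. C1qb, a complement subunit, had 15.6, 31.0, 39.4 and 18.8 CPM in HA IP and 54.7, 117, 95.4 and 64.8 CPM in flow-through. The fractions did not overlap, and animals 79 and 65 were higher in both (−1.70 ± 0.13). The median was −0.87 in animal 65 and −1.51 to −1.60 in the other 3. Tmem119, a marker of resident microglia, was at −1.59 ± 0.16.

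Genes listed for mature oligodendrocytes and for their precursors went mostly in opposite directions. Of 16 genes of mature oligodendrocytes and myelin, 14 were lower, with a median of −0.73, and Opalin was slightly higher (0.46 ± 0.13, adjusted p = 0.0100, or 0.134 without the block, 0.261 with 22 libraries in 1 edgeR fit, 0.0687 without animal 79 and 0.0567 without animal 154). Mbp, myelin basic protein, had 3536, 4969, 3691 and 4069.8 CPM in HA IP and 7719.7, 9843, 9187 and 7900.5 CPM in flow-through. Its CPM was lower in HA IP in each animal (−1.10 ± 0.09). How far the pull-down removed myelin RNA was not measured by this value. Gjb1, the connexin of oligodendrocytes, was the lowest at −1.65 ± 0.13. Of 12 genes of oligodendrocyte precursors, 10 were higher in HA IP, with a median of 1.24. The largest difference of the list was that of Sox6, at 2.97. Olig1, a regulator of the whole lineage, had 574, 1003, 952 and 831 CPM in HA IP and 182, 272, 292 and 243 CPM in flow-through (1.75 ± 0.08). The receptor Pdgfra was at 1.56 ± 0.17 and the proteoglycan Cspg4 at 1.17. Sox10, which precursors and mature cells share, was lower (−0.66 ± 0.10), and Pcdh15 did not pass (−0.21, adjusted p = 0.309, edgeR).

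Ependymal and ciliary genes were higher in HA IP for 11 of 12 tested, of 14, with a median of 2.60. Rarres2, the adipokine chemerin, had 14.2, 12.9, 11.9 and 15.6 CPM in HA IP and 0.208, 1.84, 0.238 and 0.696 CPM in flow-through (4.43 ± 0.45). Foxj1, the regulator of motile cilia, had a small excess by comparison: 22.6, 22.7, 21.2 and 22 CPM against 15.98, 5.34, 11.9 and 12.1 CPM (1.00 ± 0.24). Tekt1, a ciliary filament protein, had 436 counts in HA IP and 2 in flow-through. Summed over the list, HA IP held 82.9 to 104 CPM and flow-through 17.5 to 35.0 CPM. The list median was 4.55 in animal 42 and 2.16 to 2.37 in the others.

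Vascular genes were scarce. Of 15 endothelial genes 5 passed the filter, and the defining markers Cldn5 and Pecam1 had 10 and 59 counts in all 4 HA IP libraries together and 2 and 19 in flow-through. Mfsd2a, a lipid transporter of the blood-brain barrier that astrocytes also express, was higher (3.23 ± 0.15) and made up most of the list's summed level in HA IP. Itm2a (−1.42 ± 0.25), Esam and Eng were lower, the last 2 with adjusted p-values of 0.0396 and 0.0386 that were lost with DESeq2 (0.0712 and 0.0514) and without the filter (0.0715 and 0.0701). Of 12 tested genes of fibroblasts and pericytes, of 15, 7 were lower and 3 higher, beside 30.6% and 32.8% of all genes. Pdgfrb, the pericyte receptor, had 16.3, 9.74, 17.5 and 8.85 CPM in HA IP against 1.95, 0.736, 2.38 and 1.13 CPM (3.09 ± 0.25), and the collagen Col1a2 was at 2.41 ± 0.20. The matrix proteins Dcn (−2.32 ± 0.32) and Lum (−2.33 ± 0.50) and the growth factor Igf2 (−2.31 ± 0.17) lay at the value of the neuron genes. That value is near the one of a gene with equal counts in both fractions, so the match is not a trait shared by these cells. None of 6 lymphocyte and 6 blood genes passed the filter; of the B cell gene Ms4a1 there were 0 counts in 8 libraries.

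RNA known to be kept in the nucleus was lower in HA IP. All 8 nuclear long noncoding RNAs tested were lower, with a median of −1.17. Genes of the neuron lists were lower as well, and the cells these RNAs came from were not tested. Malat1, of nuclear speckles, had 2215, 717, 547 and 1182 CPM in HA IP and 4724, 1887, 1150 and 2708 CPM in flow-through. It was higher in animals 42 and 154 in both fractions and lower in HA IP in each animal (−1.19 ± 0.09), a difference that did not pass without the block (adjusted p = 0.0630, edgeR). Rian, a maternally expressed imprinted RNA, was at −1.79 ± 0.12. The structural RNAs Rpph1, of RNase P (10.1, 6.82, 9.21 and 3.68 CPM against 42.7, 45.5, 66.9 and 16.6 CPM), and Rmrp were at −2.46 ± 0.18 and −2.43 ± 0.42, at the lower end of the whole distribution. This end is near the value of a gene with equal counts in both fractions, and Terc, which did not pass the filter, had 7 in each. Among all rows with a noncoding RefSeq accession, 113 of 484 tested (23.3%) were higher and 143 (29.5%) lower, beside 33.8% and 31.2% of 12302 coding rows. The snoRNA Snord42a had 92 counts in HA IP and 0 in flow-through, and its HA IP level, 0.510 CPM, is within the flow-through floor, so no fold is given.

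Genes of the translation and respiration machinery, which every cell uses, had smaller list medians than the astrocyte lists. Rpl22, whose protein carries the tag, had 80.3, 119, 117 and 87.0 CPM in HA IP and 60.0, 90.0, 86.9 and 71.3 CPM in flow-through. The ranges overlapped, but HA IP was higher in each animal, by 1.31-fold on average (0.38 ± 0.09, adjusted p = 0.00347, edgeR), a difference that did not pass without the block (adjusted p = 0.0984) or with 22 libraries in 1 fit (0.174). Of 80 ribosomal protein genes tested, 33 were lower and 10 higher, beside 30.6% and 32.8% of all genes, with a median of −0.22. The largest decrease was Rps29 (−0.88 ± 0.08), and the abundant Rpl4 was at −0.58 ± 0.08. Respiratory chain subunits encoded in the nucleus were higher for 67 of 78, beside 32.8% of all genes. Their median was 0.69, and 8 were higher past 2-fold. Atp5g1 was lower (−0.38 ± 0.08, adjusted p = 0.0507 without the block and 0.0738 with 22 libraries in 1 edgeR fit). The muscle-type subunit Cox7a1 was at 3.14 ± 0.59, and the testis-type Cox7b2 had 346 counts in HA IP and 1 in flow-through. Of 11 immediate early genes tested, 5 were lower, among them Egr1 (−2.16 ± 0.15), and 0 higher, beside 30.6% and 32.8% of all genes. Of 35 histone genes tested 14 were higher and 9 lower, shares near the 32.8% and 30.6% of all genes.

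Levels per length are given in the authors' adjusted FPKM. The protease inhibitor Cst3 (cystatin C) was at 6888 ± 1077 FPKM (SD, n = 4) in HA IP and 868 ± 352 in flow-through, Ndrg2 at 5996 ± 859.75 and 298 ± 54.4, and Aldoc at 5237 ± 861 and 406 ± 110.42. Mir6236, whose counts include ribosomal reads, lay between the last 2. Below Aldoc, in this order, came Dbi (4242 FPKM), Ckb (3573 FPKM), Sparc (3567 FPKM) and the metallothioneins Mt2 (2861 ± 705 FPKM) and Mt1 (2841 ± 863 FPKM), which are close paralogs, so that their counts are uncertain. Gfap, at 1433 ± 295 FPKM in HA IP and 39.1 ± 7.33 in flow-through, was thus lower per length than Cst3, although its log2 difference was larger (5.12 against 3.01). Fth1, the ferritin heavy chain, was high in both fractions but more so in flow-through, at 4679.6 ± 1543 against 1122 ± 204 FPKM (−2.09).

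The same contrast in injured cord differed. In a fit of 16 libraries of WT animals, the difference between fractions changed with injury for 740 (5.14%) of 14401 genes towards HA IP and for 1004 (6.97%) away from it. The total of 1744 rested on the setting: it was 566 without the block, 415 with libraries thinned to equal depth, and 913, 886 and 962 without animal 79, 65 or 154. All 5 identity markers were among the latter, and their median went from 4.63 in uninjured to 2.20 in injured animals. CPM in this fit are on another scale, since Rn45s took 89.0% to 96.2% of the counts of every injured library; its part in these differences was not tested. Gfap was at 734, 977, 1060.0 and 710 CPM in uninjured and 3001, 2448, 1767 and 1736 CPM in injured HA IP (animals 9935, 9874, 9843 and 9596), and at 21.7, 28.7, 29.1 and 20.4 against 320.5, 251, 265 and 301 CPM in flow-through. Both fractions were higher in every injured library, flow-through by more, and the difference fell by 2.18 (SE 0.19, adjusted p = 1.70e-05, edgeR). The difference also fell for Aqp4 (−3.52 ± 0.22), Slc1a2 (−2.59 ± 0.20) and Gja1 (−2.16 ± 0.34), and these 4 calls were kept in each alternative run. The levels behind them moved otherwise than those of Gfap: Aqp4 in HA IP was at 618, 402, 501 and 448 CPM in uninjured and 252, 249, 219 and 250.1 CPM in injured animals, while its flow-through went from 32.3, 24.5, 20.7 and 20.8 CPM to 125, 149.7, 105 and 182 CPM. Gja1 in HA IP was at 246, 172, 187 and 189 CPM in uninjured and 63.4, 36.4, 42.4 and 30.1 CPM in injured animals, and its flow-through ranges overlapped. The call for Aldh1l1 (−2.35 ± 0.61, adjusted p = 0.0244) was lost in several, with adjusted p-values up to 0.154 when libraries were thinned to equal depth.

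Apoe, which was 32.1-fold higher in HA IP of uninjured cord, lost that excess. In HA IP it stood at 678, 875, 853 and 757 CPM in uninjured and 834, 1894, 1196 and 886 CPM in injured animals, while flow-through went from 13.3, 32.9, 29.3 and 27.6 CPM to 871, 2065, 2374 and 1735 CPM. The 5.01 ± 0.22 excess of uninjured HA IP was −0.54 ± 0.19 after injury, a change of −5.55 ± 0.28 (adjusted p = 2.88e-07, edgeR). Myelin genes moved the other way for 14 of 16, from a median of −0.73 to 0.59. Mbp was at 806, 1117, 837 and 930 CPM in uninjured and 5518, 5229.6, 6856 and 3969.8 CPM in injured HA IP, with flow-through at 1736, 2228, 2095 and 1786 CPM and at 3043, 2675, 3209.8 and 2970.2 CPM. HA IP was the lower fraction before injury (−1.09 ± 0.12) and the higher one after it (0.84 ± 0.12), a change of 1.93 ± 0.17. For ribosomal protein genes 46 of 80 shifted away from HA IP and 1 towards it, and Rpl22 went from 0.39 to −0.89. Of 20 microglia genes 1 shifted away and 0 towards.

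**Figure D5:**
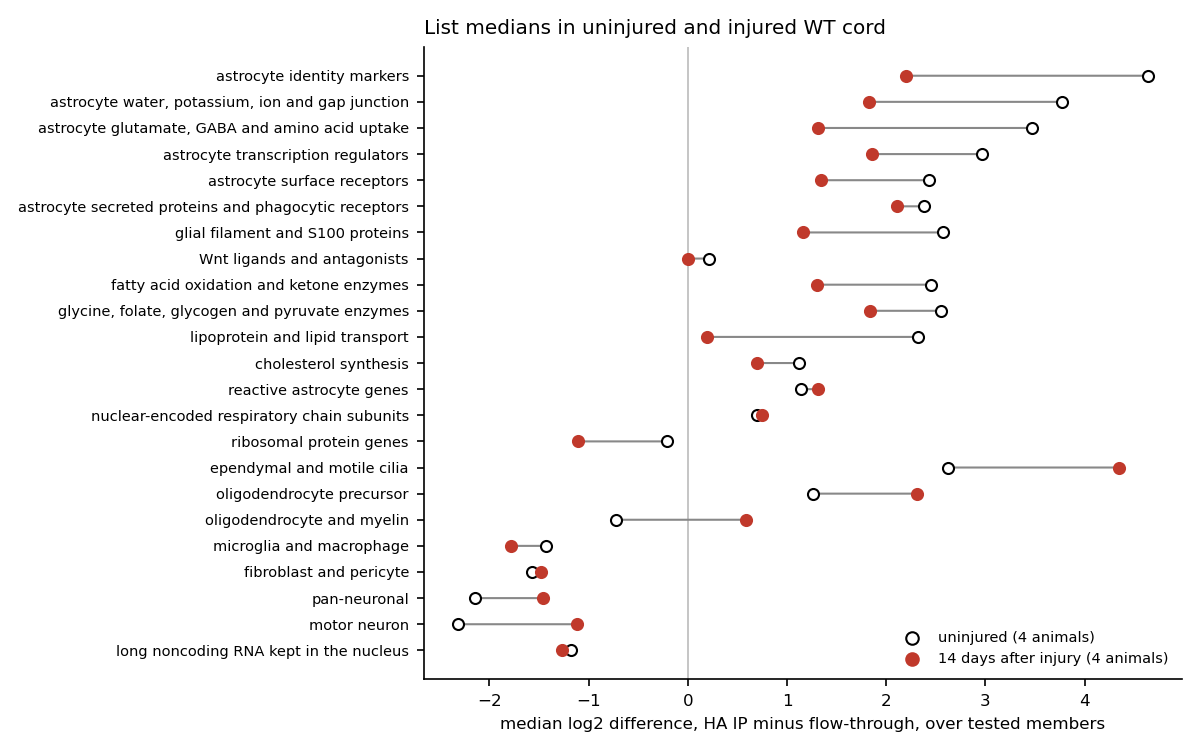
Open and filled points give the median log2 difference between HA IP and flow-through over the tested members of each list in 4 uninjured and 4 injured WT animals, from 1 fit of 16 libraries. Identity markers go from 4.63 to 2.20, and myelin genes from −0.73 to 0.59.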

How the data were processed

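RNA was measured by sequencing in HA IP and flow-through of 4 uninjured WT animals, from 5 ng of RNA per library, per the labels' protocols. CASAVA 1.8.2, edgeR and the build mm10 appear in the submitters' processing notes; for the aligner, counting tool and strand setting, a name is not given in the sources used here, so counts of overlapping genes, antisense genes and close paralogs are uncertain. The authors deposited raw read counts for 24060 gene rows, per the file headers, and adjusted FPKM values, used here only for levels per length. Another 138 per-sample columns were not used. A date stood for the symbol in 27 rows, and 25 were restored through RefSeq accessions.

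Raw counts of 8 libraries were filtered with filterByExpr, scaled with TMM and tested with edgeR 4.0.16 in R 4.3.3 (quasi-likelihood, two-sided, animal as a block); glmTreat gave the test against 2-fold. Animal numbers pair the fractions because both come from 1 homogenate. The deviations of the 2 libraries correlated at 0.370 to 0.647 within animals and at most 0.140 between them. Whether reads counted in both libraries of an animal add to this correlation was not tested. The labels name separate animals, and no 2 uninjured libraries of the same fraction agreed within counting noise (lowest chi-square per degree of freedom 6.29). The 2 fractions of an animal were not compared in this way. The contrast with injury is the interaction of fraction and condition in 16 WT libraries. Levels are CPM at TMM-adjusted library sizes.

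The comparison and the 34 gene lists were chosen with earlier results of these data known. Of 750 different members, 550 passed the filter. Named are the 5 markers, Rpl22 and Stat3; the 10 genes per direction with the largest difference among those past 2-fold, with log2 CPM averaging 3 or more and 1 direction in 4 animals, leaving out predicted and small RNA genes; up to 3 called members per list and direction; and the member of each list with the highest HA IP level. Some genes taken by this rule are not reported here. Other members are given by their log2 difference, and the highest genes per length by their level. Coordinates are from GENCODE M21 (GRCm38). The alternatives were no block, RLE scaling, DESeq2 1.42.0, no filter, thinning, leaving out Rn45s, Lars2 and Mir6236, 22 libraries in 1 fit and leaving out each animal.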

Additional observations from a re-analysis of the deposited data

Results flagged for a closer look

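In 15 of 280 sets of 4 libraries (140 named genes in each of 2 fractions, 5.36%), 1 library stood apart from the other 3; chance flags about 1 in 20 such sets. Animal 42 was the one apart in 7 of them. It was the highest for Abcc8 in HA IP (7.69 CPM against 3.37 to 4.11 in the others), Grm5 in HA IP (39.6 CPM against 23.1 to 24.8), Lum in HA IP (0.769 CPM against 0.0622 to 0.158), Chat in flow-through (36.6 CPM against 17.6 to 19.3) and Ednrb in flow-through (32.3 CPM against 15.4 to 17.7). It was the lowest for Sncb in flow-through (35.9 CPM against 94.0 to 105) and Rps27l in HA IP (27.7 CPM against 42.8 to 45.6). Animal 79 was the highest for Cxcl10 in both fractions (8.58 CPM in HA IP and 0.736 CPM in flow-through), for Rpl4 in flow-through (727 CPM against 615 to 634) and, with 1 or 2 counts where the others had 0, for Tekt1 (0.368 CPM) and Cox7b2 (0.184 CPM) in flow-through. Animal 65 was the highest for Vim in HA IP (104 CPM against 71.2 to 75.4) and for Pmp2 in flow-through (0.238 CPM, 1 count, with 0 in the others), and animal 154 for Rarres1 in flow-through (0.435 CPM, 5 counts, with 0 in the others).

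The difference between HA IP and flow-through was smaller after injury for each of the 5 identity markers, by the interaction test in edgeR: Gfap by −2.18, Aqp4 by −3.52, Gja1 by −2.16, Slc1a2 by −2.59 and Aldh1l1 by −2.35 on the log2 scale.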

How the results depend on the processing

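Each count of genes called in uninjured cord stayed within 1.5 times its value under each alternative. Without the replicate block 7250 genes were called in place of 9082 (2687 in place of 3574 past 2-fold), DESeq2 called 2781 past 2-fold, 22 libraries in 1 fit called 6889, and leaving out 1 animal gave 7859 to 9499. Of 140 named genes, 121 kept direction and call under every alternative they could be tested in; the other 19 changed their call and 0 reversed. The all-gene median was 0.0641, 0.0266 with RLE scaling and 0.1 without the filter. The count of genes whose difference changed with injury, 1744, was 566 without the replicate block, 415 when thinned, and 886 to 1944 without 1 animal (913 without animal 79, 886 without 65, 962 without 154). Limits of depth lie in flow-through, the shallower fraction. When thinned, list medians moved by more than the spread between animals for reactive genes (1.41, and 3.18 with DESeq2, from 2.53), endothelium (0.93, reversed from −1.14), fibroblasts and pericytes (−0.96 from −1.53), histones (0.56 from 0.35), Rpl22 (0.30, 0.46 without the filter and 0.29 with 22 libraries, from 0.38) and small nucleolar RNA (−0.23, −1.22 without the 3 ribosomal genes and −1.31 with 22 libraries, from −0.74). The cause was not tested. Leaving out 1 animal gave medians of 3.32 to 3.54 for uptake, 3.55 to 3.87 for water, potassium and gap junction genes, 2.36 to 2.55 for secreted proteins, 2.33 to 2.74 for glycine, folate and glycogen enzymes and 0.577 to 0.729 for respiratory chain subunits.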
